A study of Caenorhabditis elegans with 16 samples.

Results

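The genes for cohesin subunits and for 2 of its regulators were followed in whole *C. elegans* worms after auxin-induced removal of SYP-2. The set has 10 genes, chosen by name and with earlier results of these data known. It holds the kleisin genes *rec-8*, *coh-3*, *coh-4*, *scc-1* and *coh-1*, the SMC genes *smc-1* and *smc-3*, *scc-3*, and the regulators *wapl-1* and *sgo-1*. Of the 42048 genes in the count table, 9 carried these symbols. *smc-1* was read from the row *him-1* (WBGene00001860), the other known name of the worm gene that encodes SMC-1, and is called *him-1 (smc-1)* here. All 10 passed the filter on low counts, which kept 11776 genes.

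The experiment had 16 libraries in 4 groups of 4 biological replicates, each made from pooled young adults at 18 to 24 h after the L4 stage. Plates with 4 mM auxin (IAA) or without it held *syp-2::AID* worms for 4 h, and the wild-type strain N2 was handled alike. In the degron strain an auxin-inducible tag sits at the end of *syp-2*, a gene of the synaptonemal complex, and the *ieSi38* transgene makes the F-box protein TIR1 from the *sun-1* promoter, which is active in the germline. N2 worms carry neither tag nor transgene, so the untreated strains differ by both.

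Cohesin is a ring built from an SMC-1 and SMC-3 pair closed by a kleisin, with SCC-3 bound to the kleisin, and it holds sister chromatids together. The kleisin sets where the ring acts. In the worm germline REC-8 and the highly similar pair COH-3 and COH-4 are the meiotic kleisins. They form the base of the chromosome axis on which the synaptonemal complex assembles. SCC-1 is the mitotic kleisin, and COH-1 is a further kleisin known from somatic cells. WAPL-1 opens the ring and releases it from chromatin. SGO-1 is the worm shugoshin, a family known in yeast and vertebrates for shielding cohesin from separase, the protease that cuts kleisins.

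A library held 13964761 to 18741524 counts, and a cohesin gene had between 70 and 4881 counts in a library. The libraries of auxin replicates 3 and 4 in the degron strain, called S3-IAA and S4-IAA here, differed from the remaining 14. In them, genes with a longer exon length were lower relative to the 16-library mean (Spearman's rho -0.55 and -0.63 over 11457 genes with a length), against rho of 0.05 to 0.28 elsewhere. The 13 germline markers, all detected, summed to 0.426% and 0.385% of all counts in these 2, against 0.549% to 0.651% in the rest, and ribosomal protein genes took 18.9% and 19.03%, against 11.4% to 15.4%. The 8 intestine markers took 5.39% and 5.17%, against 7.62% to 9.69%. The 8 body wall muscle markers took 0.295% and 0.331%, against 0.337% to 0.637%. The 5 hypodermis markers went the other way, at 0.263% and 0.290% against 0.154% to 0.261%. The 6 neuron markers, at 0.0185% and 0.0170%, lay within the range of the rest. Neither the labels nor the methods give a batch for these libraries, and each change below that rests on them is given with and without them. RNA came from whole worms, so fewer germline cells and less of a transcript per germline cell cannot be told apart. Neither can be told apart from the trend with exon length in these 2 libraries. With auxin, *syp-2* itself was at a log2 fold change of 0.02 in *syp-2::AID* worms (standard error, SE, 0.10, with an edgeR adjusted p of 0.917), and because the degron acts on the protein this does not check the labels.

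Levels are given as CPM, the standard scaling of a gene's counts to the total of its library (here multiplied by edgeR's TMM factor) and, between genes, as CPM per kb of exon. Per kb, the SMC gene *him-1 (smc-1)* and the mitotic kleisin gene *scc-1* were the highest, and *coh-1* was the lowest in each of the 4 groups. *him-1 (smc-1)* averaged 44.7 ± 13.1 CPM per kb in auxin-treated and 57.1 ± 4.52 CPM per kb in untreated *syp-2::AID* worms (SD, n = 4 each), and 53.8 ± 4.70 and 51.3 ± 1.98 CPM per kb in auxin-treated and untreated N2 worms. *scc-1* averaged 44.6 ± 5.68 and 48.2 ± 1.84 CPM per kb in auxin-treated and untreated *syp-2::AID* worms, and 50.7 ± 3.38 and 56.1 ± 5.06 CPM per kb in auxin-treated and untreated N2 worms. The libraries of these 2 genes did not overlap in untreated *syp-2::AID* worms, where *him-1 (smc-1)* was higher, and overlapped in the other 3 groups.

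Below them in untreated *syp-2::AID* worms came *wapl-1* at 41.1 ± 1.24 CPM per kb, *sgo-1* at 32.2 ± 0.433, *smc-3* at 28.4 ± 1.57, *scc-3* at 27.8 ± 1.79, *rec-8* at 23.7 ± 2.58, *coh-3* at 22.2 ± 0.383, *coh-4* at 12.0 ± 0.906 and *coh-1* at 4.79 ± 0.313 CPM per kb (SD, n = 4). In this order *smc-3* and *scc-3*, *scc-3* and *rec-8*, and *rec-8* and *coh-3* overlapped between libraries, whereas the other neighbours did not. *coh-4* and *coh-1* stood clear of their neighbours in all 4 groups. *smc-3* thus lay below its partner *him-1 (smc-1)* per kb.

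**Figure D1:**
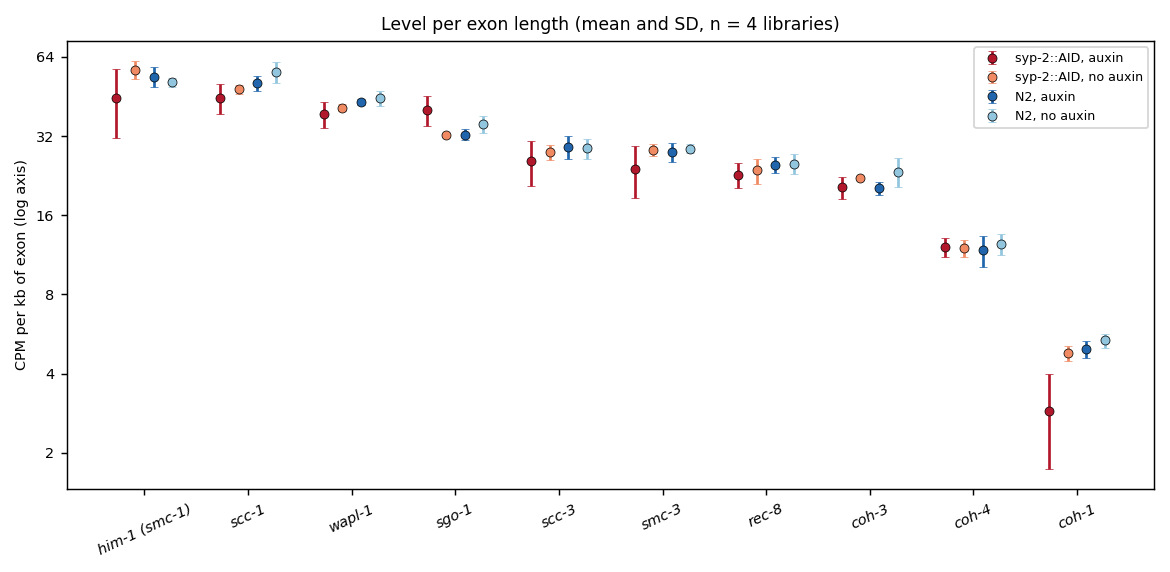
Mean level per exon length, in CPM per kb on a log axis, of the 10 cohesin genes in the 4 groups (points: mean; bars: SD over 4 libraries). *him-1 (smc-1)* and *scc-1* lie highest, and *coh-1* lies lowest at 2.87 CPM per kb in auxin-treated and 4.79 CPM per kb in untreated *syp-2::AID* worms.

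The 3 meiotic kleisin genes made up about as much of the kleisin transcripts as *scc-1* and *coh-1* combined. Of the summed per-kb level of the 5 kleisin genes, *rec-8*, *coh-3* and *coh-4* took 53.9% ± 1.58 in auxin-treated and 52.2% ± 0.860 in untreated *syp-2::AID* worms, and 50.5% ± 1.52 and 49.8% ± 0.382 in auxin-treated and untreated N2 worms (SD, n = 4 each). *scc-1* took 42.3% to 46.6% in the 16 libraries. *coh-3* was higher per kb than *coh-4* in every library, by 1.56 to 2.17 times. Reads that match both of these similar genes may be split between them, since the treatment of reads that match several places is not given in the sources used here. *coh-4* also shares 327 exon bases on the same strand with Y45G5AM.7, and no other cohesin gene overlaps an exon of another gene in the WBcel235 annotation.

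Removal of SYP-2 takes the synaptonemal complex off axes that cohesin supports, and the first comparison asks whether cohesin transcripts moved within 4 h of auxin in *syp-2::AID* worms. The words rose and fell are kept for an adjusted p under 0.05 over all genes tested, by edgeR's quasi-likelihood test. *coh-1* fell, *sgo-1* rose, and the other 8 genes did not pass. This is 2 of 10 genes, beside 848 of all 11776 (7.20%). An unadjusted p under 0.05 was found for 3 of 10, with *him-1 (smc-1)* as the third, beside 29.95% of all genes. The median log2 fold change of the 10 was -0.11, and that of all genes was 0.03. Each of the 8 other than *coh-1* and *him-1 (smc-1)* had a 95% interval that lay within a 1.5-fold change either way.

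*coh-1* had 10.6, 11.8, 6.38 and 4.87 CPM with auxin in *syp-2::AID* worms (replicates 1 to 4), against 13.5, 14.6, 14.9 and 13.0 CPM without it. Every auxin-treated library lay below every untreated one, with S3-IAA and S4-IAA lowest. The log2 fold change was -0.73 (SE 0.20, 95% interval -1.15 to -0.31, edgeR adjusted p = 0.0349), and p was 0.0286 by an exact permutation test of the CPM values (two-sided), the lowest value possible with groups of 4. Groups that do not overlap were found for 2 of the 10 genes and for 13.0% of all genes. Without S3-IAA and S4-IAA the log2 fold change was -0.32 and edgeR did not call it (adjusted p = 0.197). Both remaining libraries lay below all 4 untreated ones, and how many of all genes do so was not counted. The edgeR adjusted p of *coh-1* was also above 0.05 when S3-IAA, S4-IAA or any 1 of the 4 untreated *syp-2::AID* libraries was left out (0.0539 to 0.126), and on the 8 *syp-2::AID* libraries alone (0.190). Over all alternatives it ranged from 0.00504 to 0.197.

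In N2 worms *coh-1* had 14.3, 13.4, 16.02 and 14.3 CPM with auxin, against 16.6, 16.4, 14.9 and 14.8 CPM without it. The N2 groups overlapped, with a log2 fold change of -0.11 (SE 0.20, edgeR adjusted p = 0.826). The response in *syp-2::AID* worms minus that in N2 worms was -0.62 on the log2 scale (SE 0.28, 95% interval -1.21 to -0.03), which did not pass the test of the difference (edgeR adjusted p = 0.269). This difference was -0.21 without S3-IAA and S4-IAA and -0.38 when the dependence on exon length was taken out of each library (edgeR adjusted p = 0.772 and 0.344). A fall of *coh-1* was thus called in *syp-2::AID* worms, and a difference between the strains was not.

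*sgo-1*, the shugoshin gene, had 43.8, 44.4, 55.0 and 55.1 CPM with auxin in *syp-2::AID* worms, against 39.8, 39.8, 39.0 and 40.4 CPM without it. All auxin-treated libraries lay above all untreated ones, by the smaller margin in replicates 1 and 2. The log2 fold change was 0.32 (SE 0.09, 95% interval 0.13 to 0.51, edgeR adjusted p = 0.0410), a change of 1.25-fold, and the exact permutation test gave p = 0.0286. Without S3-IAA and S4-IAA it was 0.15 and edgeR did not call it (adjusted p = 0.484). *sgo-1* was called under 5 of 24 alternatives, DESeq2 among them (adjusted p = 0.0330), with a range of 0.0139 to 0.484. Leaving out S3-IAA, S4-IAA or any 1 of the 4 untreated *syp-2::AID* libraries ended the call. So did leaving out any 1 of the 4 auxin-treated N2 libraries, or untreated N2 replicate 1 or 3. In these fits the edgeR adjusted p was 0.0545 to 0.151.

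In N2 worms *sgo-1* had 42.2, 39.8, 37.5 and 40.6 CPM with auxin, against 43.0, 47.1, 45.5 and 39.7 CPM without it. The groups overlapped and the log2 fold change was -0.13 (SE 0.09, edgeR adjusted p = 0.476). The strains differed in their response by 0.45 (SE 0.13, 95% interval 0.18 to 0.72), the largest positive difference among the 10 genes, and this did not pass edgeR's test either (adjusted p = 0.213).

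Of the core ring subunits, *him-1 (smc-1)* had 225, 227, 137 and 132 CPM with auxin in *syp-2::AID* worms, against 218, 255, 233 and 216 CPM without it. Replicates 1 and 2 lay within the untreated range and S3-IAA and S4-IAA far below it. The log2 fold change of -0.36 (SE 0.15, 95% interval -0.67 to -0.04) did not pass edgeR's test (adjusted p = 0.137), and was -0.03 without S3-IAA and S4-IAA. With auxin replicate 1 or auxin replicate 2 left out, edgeR called *him-1* as lower (adjusted p = 0.0343 and 0.0276, of a range of 0.0276 to 0.963). Of all genes, 2756 and 3170 were called in these fits, against 848 with all libraries.

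*smc-3*, the partner of *him-1 (smc-1)*, had 109, 118, 83.6 and 72.2 CPM with auxin in *syp-2::AID* worms, against 104.1, 117, 117 and 116 CPM without it. The low libraries were again S3-IAA and S4-IAA. Its log2 fold change was -0.25 (SE 0.12, edgeR adjusted p = 0.182), and -0.0015 without S3-IAA and S4-IAA. It was called as lower when auxin replicate 2 was left out (edgeR adjusted p = 0.0311, of a range of 0.0311 to 0.998). That fit called 3170 of all genes, against 848 with all libraries. *scc-3*, whose protein binds the kleisin, had 100, 111, 78.2 and 74.0 CPM with auxin, against 97.6, 107, 98.3 and 92.1 CPM without it. Its log2 fold change was -0.12 (edgeR adjusted p = 0.499), and 0.10 without S3-IAA and S4-IAA.

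None of the meiotic kleisin genes passed the test in *syp-2::AID* worms. *rec-8* ranged from 49.9 to 64.1 CPM with auxin and from 52.6 to 66.8 CPM without it, with a log2 fold change of -0.05 (95% interval -0.26 to 0.16, edgeR adjusted p = 0.741). *coh-3* ranged from 38.6 to 48.4 CPM with auxin and from 46.4 to 48.1 CPM without it, with a log2 fold change of -0.12 (95% interval -0.32 to 0.08, edgeR adjusted p = 0.378). *coh-4* ranged from 22.1 to 26.8 CPM with auxin and from 22.6 to 27.1 CPM without it, with a log2 fold change of 0.02 (95% interval -0.21 to 0.25, edgeR adjusted p = 0.933). The groups overlapped for all 3, although 3 of the 4 auxin-treated libraries lay below the untreated range for *coh-3*.

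The mitotic kleisin gene *scc-1* had 106, 105, 90.8 and 80.2 CPM with auxin, against 105, 107, 102 and 97.8 CPM without it in the degron strain. Its log2 fold change was -0.11 (95% interval -0.31 to 0.09, edgeR adjusted p = 0.418). *wapl-1*, the gene for the release factor, ranged from 97.8 to 121 CPM with auxin and from 114 to 122 CPM without it, with a log2 fold change of -0.09 (95% interval -0.25 to 0.08, edgeR adjusted p = 0.460). For both genes S3-IAA and S4-IAA were the 2 lowest of the 8 libraries.

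**Figure D2:**
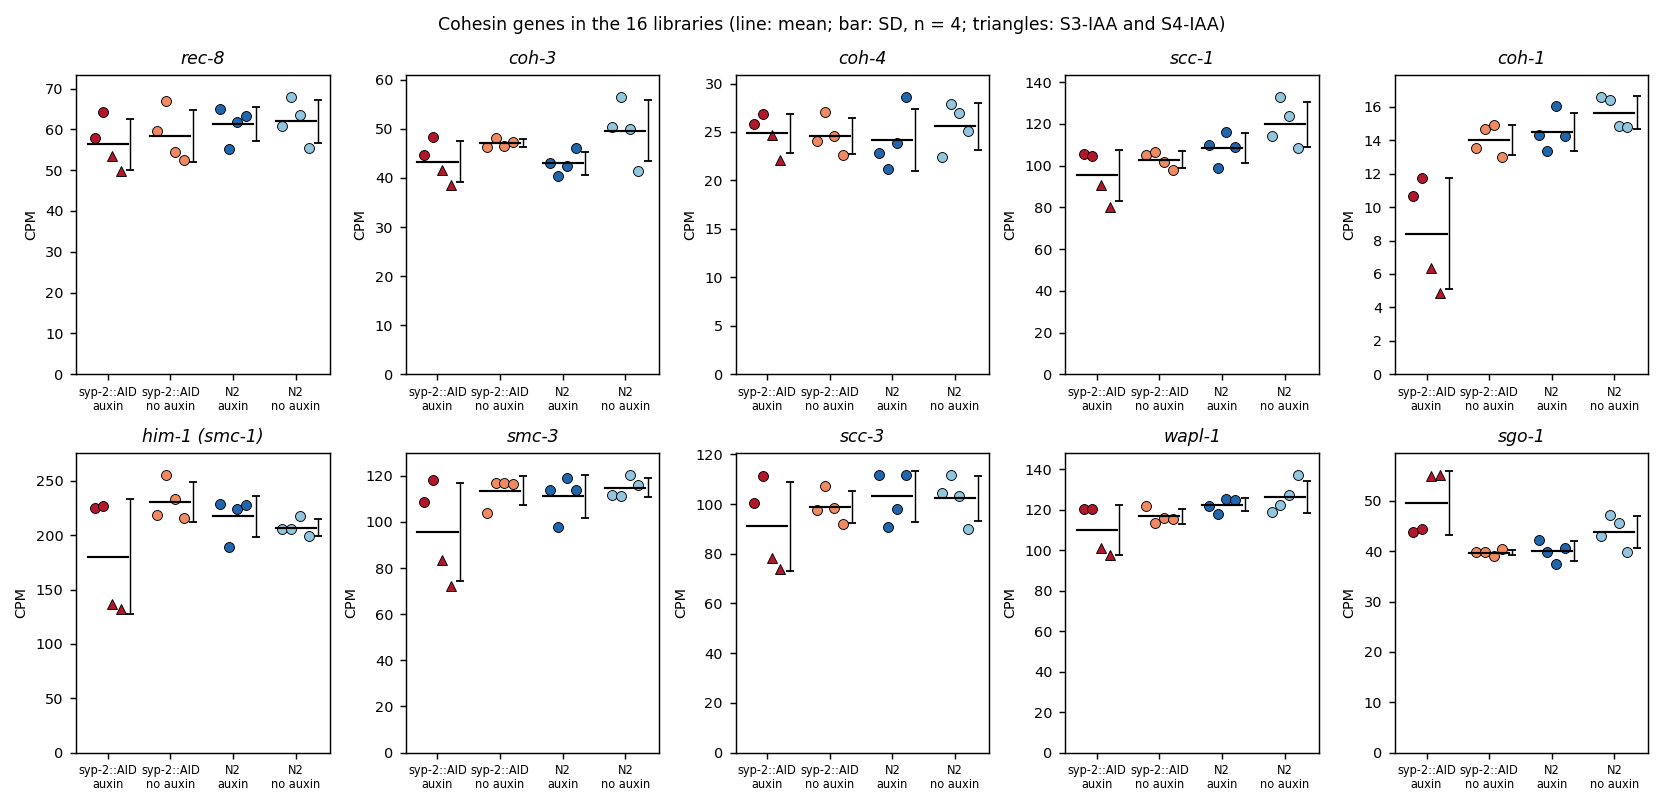
CPM of each cohesin gene in the 16 libraries, by group (points: single libraries; lines: means; bars: SD, n = 4; triangles: S3-IAA and S4-IAA). *coh-1* is at 4.87 to 11.8 CPM with auxin and 13.0 to 14.9 CPM without it in *syp-2::AID* worms, *sgo-1* is at 43.8 to 55.1 and 39.0 to 40.4 CPM, and the triangles lie low for most other genes.

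The direction of the set varied with the replicate. Against the mean of the untreated *syp-2::AID* libraries, auxin replicate 1 had 5 of the 10 genes lower, replicate 2 had 2, replicate 3 had 8 and replicate 4 had 9. The 1 gene above that mean in all 4 was *sgo-1*, and the 2 below it in all 4 were *coh-1*, at log2 ratios of -0.40, -0.25, -1.14 and -1.53, and *him-1 (smc-1)*, at -0.04, -0.02, -0.76 and -0.80. Among N2 worms, auxin replicate 2 had all 10 genes below the mean of the untreated libraries, with a median log2 ratio of -0.20, and the other 3 had 6 or 7 genes below it.

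The spread between libraries was larger in auxin-treated *syp-2::AID* worms, the group that holds S3-IAA and S4-IAA. The median coefficient of variation of the 10 genes was 12.7% there, against 5.99% in untreated *syp-2::AID* worms, and for all genes tested it was 23.3% and 11.3% in these 2 groups. *coh-1* had the largest coefficient of variation of the 10 in auxin-treated *syp-2::AID* worms at 39.4%, against 6.54% without auxin. Against the untreated mean, the median log2 ratio of the 10 genes was 0.004 and 0.05 in auxin replicates 1 and 2. It was -0.20 and -0.32 in S3-IAA and S4-IAA. The spread without S3-IAA and S4-IAA was not computed.

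Exon length moved with these values. *sgo-1* has the shortest exon length of the set at 1.235 kb and *him-1 (smc-1)* the longest at 4.035 kb, with *coh-1* at 2.929 kb. In *syp-2::AID* worms the log2 fold changes of the 10 genes were lower in longer genes (Spearman's rho -0.76, 10 genes measured in the same libraries), and rho was -0.58 without S3-IAA and S4-IAA. In N2 worms the same 10 genes had rho of 0.70, the opposite sign, where all 11457 genes with a length had 0.03 (-0.49 in *syp-2::AID* worms). Over all genes, the median log2 fold change was 0.30 in the 2860 genes with the shortest exon length (up to 0.932 kb) and -0.23 in the 2865 with the longest (from 2.188 kb), against -0.01 and 0.02 for the same genes in N2 worms.

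When the dependence on exon length was taken out of each library, *coh-1* remained called as lower (-0.57, edgeR adjusted p = 0.0135), and *sgo-1* was at 0.19 and not called (edgeR adjusted p = 0.246). *him-1 (smc-1)* was then at -0.07 and *smc-3* at 0.06 (edgeR adjusted p = 0.685 and 0.728). In S3-IAA and S4-IAA *coh-1* lay further below the untreated mean than the 3 cohesin genes with a longer exon length, which were at -0.34 and -0.42 for *scc-3*, -0.44 and -0.65 for *smc-3*, and -0.76 and -0.80 for *him-1 (smc-1)*.

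**Figure D3:**
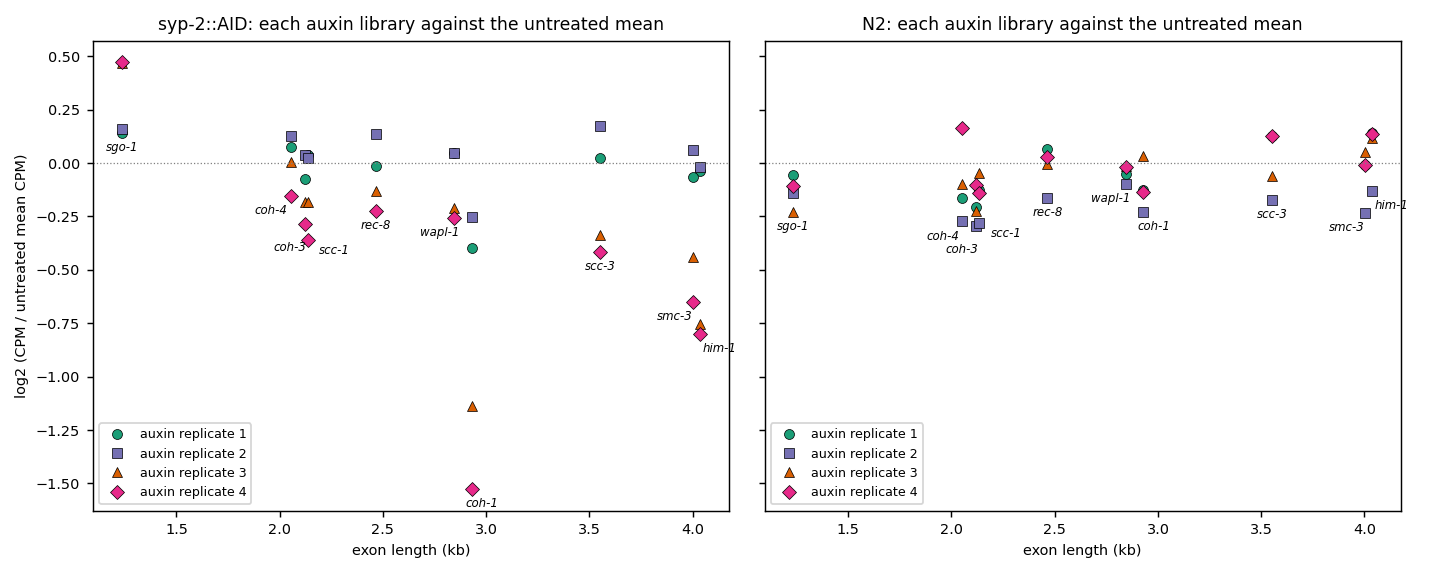
Each auxin-treated library against the mean of the untreated libraries of its strain, as log2 of the CPM ratio, plotted against exon length in kb for the 10 cohesin genes (left: *syp-2::AID*; right: N2; symbols: auxin replicates 1 to 4). In *syp-2::AID* worms S3-IAA and S4-IAA run from 0.47 for *sgo-1* down to -0.76 and -0.80 for *him-1*, with *coh-1* lower still at -1.14 and -1.53.

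The share of *coh-1* among the kleisin transcripts showed the same groups. Of the summed per-kb level of the 5 kleisin genes, *coh-1* took 3.30%, 3.49%, 2.22% and 1.88% with auxin in *syp-2::AID* worms, against 4.13% to 4.68% without it. In N2 worms the share was 4.16% to 4.69% with auxin and 4.04% to 4.79% without it. All 4 auxin-treated *syp-2::AID* libraries, replicates 1 and 2 included, were below the 12 others. The share uses the same *coh-1* counts as above and is not separate evidence, and such a share was not formed for all genes. *coh-1* also has the longest exon length of the kleisin genes, at 2.929 kb against 2.053 to 2.465 kb. How far the trend with exon length enters the share was not tested.

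Auxin plates alone were tested in N2 worms, where SYP-2 carries no degron. None of the 10 genes rose or fell, beside 5.43% of all genes, and DESeq2 and limma-voom called none as well. *coh-3* was the 1 gene at an unadjusted p under 0.05 (18.5% of all genes), at 43.0, 40.5, 42.5 and 46.1 CPM with auxin, against 50.3, 56.6, 50.0 and 41.5 CPM without it. The *coh-3* groups overlapped through untreated replicate 4, and its log2 fold change of -0.21 (SE 0.09) had an adjusted p of 0.253 from edgeR. The 10 log2 fold changes lay between -0.21 and 0.07, with a median of -0.06 against 0.01 for all genes, and none of the 10 had groups that did not overlap, against 17.2% of all genes.

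*scc-1* and *rec-8* were at log2 fold changes of -0.15 and -0.02 in N2 worms, *him-1 (smc-1)* and *smc-3* at 0.07 and -0.05, *scc-3* at 0.01, *wapl-1* at -0.05 and *coh-4* at -0.08. The 95% intervals of 10 of the 10 genes lay within a 1.5-fold change either way.

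The test of the difference between the strains' responses called none of the 10 genes, and 2 of all 11776 genes (0.0170%). *sgo-1* and *coh-1* were the 2 of the 10 at an unadjusted p under 0.05, beside 17.6% of all genes, and DESeq2 and limma-voom called none of the 10. The next largest difference was that of *him-1 (smc-1)* at -0.42 (SE 0.21, edgeR adjusted p = 0.311), and it was -0.10 without S3-IAA and S4-IAA. For *rec-8*, *coh-3*, *coh-4* and *scc-1* the differences lay between -0.04 and 0.10.

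**Figure D4:**
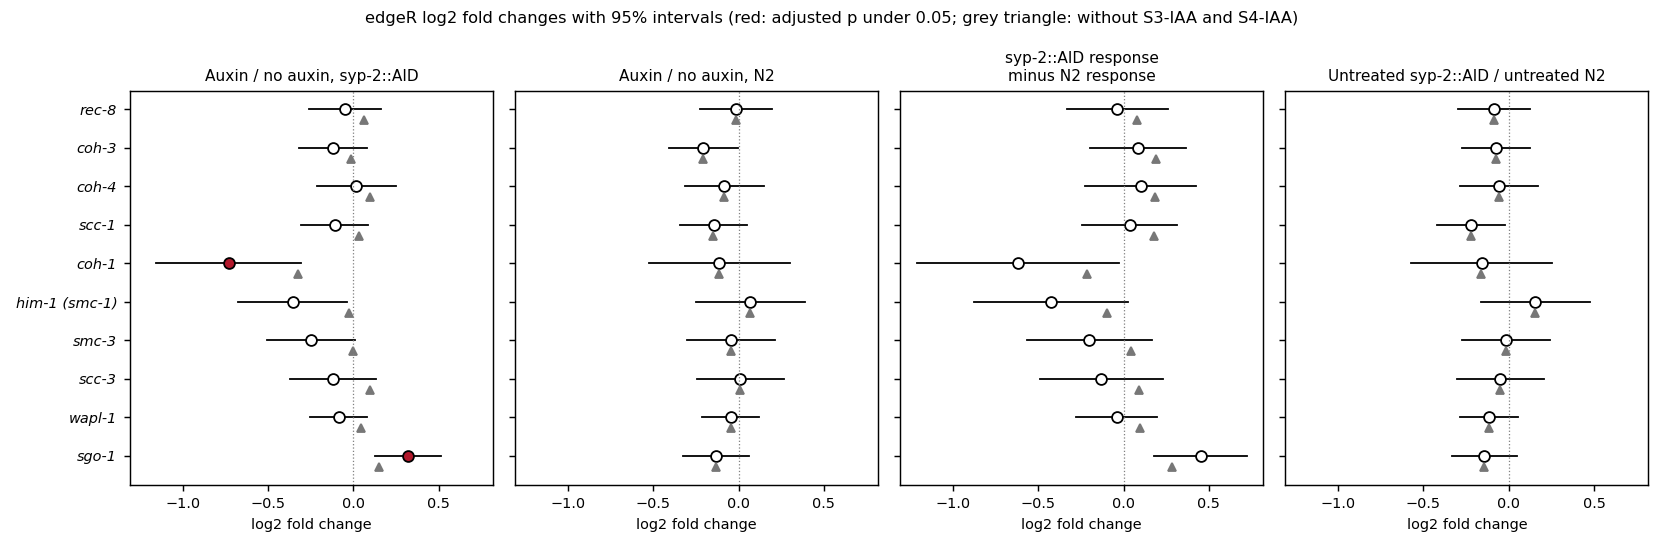
Log2 fold changes of the 10 cohesin genes with 95% intervals from edgeR, for the auxin response of *syp-2::AID* worms, that of N2 worms, their difference, and the untreated strains (*syp-2::AID* over N2) (red: adjusted p under 0.05; grey triangles: values without S3-IAA and S4-IAA). *coh-1* at -0.73 and *sgo-1* at 0.32 in the first panel are the called values, and their triangles lie nearer to 0 at -0.32 and 0.15.

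Untreated *syp-2::AID* worms were set against untreated N2 worms to see how far the tag and the TIR1 transgene went with a difference before auxin was added. None of the 10 genes rose or fell, beside 0.875% of all genes. DESeq2 and limma-voom called none either, and *scc-1* was the 1 gene at an unadjusted p under 0.05 (17.6% of all genes). *scc-1* had 105, 107, 102 and 97.8 CPM in untreated *syp-2::AID* libraries, against 114, 133, 124 and 109 CPM in untreated N2 libraries. All 4 degron libraries lay below all 4 N2 libraries (exact permutation test, p = 0.0286), and this lack of overlap was found for 13.6% of all genes. The log2 fold change of -0.22 (SE 0.09, 95% interval -0.42 to -0.02) did not pass edgeR's test (adjusted p = 0.241). It was called without S3-IAA and S4-IAA, which are in neither group but enter the shared estimate of the spread (-0.22, edgeR adjusted p = 0.0375, of a range of 0.0375 to 0.530). That fit called 12.4% of all genes in this comparison.

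*him-1 (smc-1)* was the 1 gene of the 10 on the higher side in untreated *syp-2::AID* worms, at 0.16 (SE 0.15, edgeR adjusted p = 0.618). The median of the 10 log2 fold changes was -0.08, and that of all genes was 0.02.

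In the comparison of auxin-treated *syp-2::AID* with auxin-treated N2 worms none of the 10 genes passed edgeR's test, beside 1.05% of all genes, and *coh-1* and *sgo-1* were the 2 at an unadjusted p under 0.05 (27.4% of all genes). These were also the 2 genes whose groups did not overlap, beside 11.6% of all genes. The mean of *coh-1* was 8.41 ± 3.31 CPM in treated *syp-2::AID* worms and 14.5 ± 1.11 CPM in treated N2 worms (SD, n = 4 each), with a log2 fold change of -0.78 (SE 0.20, edgeR adjusted p = 0.0645). DESeq2 and limma-voom called it as lower (adjusted p = 0.00881 and 0.0476), within a range of 0.00881 to 0.262. The mean of *sgo-1* was 49.6 ± 6.32 CPM in treated *syp-2::AID* worms and 40.0 ± 1.99 CPM in treated N2 worms (SD, n = 4 each), with a log2 fold change of 0.31 (SE 0.09, edgeR adjusted p = 0.0809). This comparison shares its auxin-treated *syp-2::AID* libraries with the first one, S3-IAA and S4-IAA included. Without these 2 the values were -0.37 for *coh-1* and 0.14 for *sgo-1* (edgeR adjusted p = 0.193 and 0.512).

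Genes that act on cohesin were followed beside the set. Of 9 symbols listed, 7 were in the table. The symbols *scc-2* and *sep-1* had no row, and whether these genes stand there under another name, as *smc-1* does, was not checked. The 7 were the loader genes *pqn-85* and *mau-2*, *evl-14* for the PDS-5 protein, *ify-1* for securin, the inhibitor of separase, *lab-1*, *tim-1* and *air-2*. The product of *lab-1* keeps cohesion on the long arms of meiotic chromosomes, *tim-1* encodes the Timeless protein and *air-2* the Aurora B kinase. None of the 7 rose or fell with auxin in *syp-2::AID* worms, beside 7.20% of all genes. Their median log2 fold change was 0.02, and DESeq2 and limma-voom called none. An unadjusted p under 0.05 was found for 3 of 7, beside 29.95% of all genes. These were *lab-1* at 0.29, *ify-1* at 0.27 and *pqn-85* at -0.37 (edgeR adjusted p = 0.160, 0.130 and 0.162). Without S3-IAA and S4-IAA these were at -0.02, -0.02 and 0.005. In the other 4 comparisons edgeR, DESeq2 and limma-voom called none of the 7, beside 0.0170% to 5.43% of all genes by edgeR. At an unadjusted p under 0.05 there were none in N2 worms (18.5% of all genes) and none between the untreated strains (17.6%). There were 2 in the difference between responses (*air-2* and *lab-1*, beside 17.6% of all genes). Between the treated strains there were 2 (*lab-1* and *pqn-85*, beside 27.45% of all genes).

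The other SMC complexes, condensin and SMC-5/6, gave 11 genes, all tested. None rose or fell with auxin in *syp-2::AID* worms by edgeR (7.20% of all genes), DESeq2 or limma-voom. None had an unadjusted p under 0.05, beside 29.95% of all genes. All 11 had a negative log2 fold change, from -0.36 to -0.05 with a median of -0.14, and the median was 0.02 without S3-IAA and S4-IAA. Their exon lengths are 2.76 to 5.30 kb, all above 2.188 kb. In N2 worms the median was 0.05 and none was called, beside 5.43% of all genes. *smc-5* had an unadjusted p under 0.05 in N2 worms, at 0.38 (edgeR adjusted p = 0.0960), and between the untreated strains, at 0.46 (edgeR adjusted p = 0.0786), where DESeq2 called it. edgeR called *smc-5* as higher in both without S3-IAA and S4-IAA, which are in neither comparison but enter the estimate of the spread (adjusted p = 0.0459 and 0.0215, at 0.38 and 0.46). The same fit called 12.9% and 12.4% of all genes in these comparisons. Both use the same untreated N2 libraries. Between the treated strains *smc-5* was at 0.04 (edgeR adjusted p = 0.857, all libraries). *smc-5* was chosen after its values were seen.

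The genes whose log2 CPM was most like that of the called genes over the 16 libraries were found by Pearson's r. For *coh-1* these were *alg-2* (r = 0.982), M01E5.3 (r = 0.977) and *lit-1* (r = 0.977), with exon lengths of 4.142, 2.671 and 3.422 kb. For *sgo-1* these were Y71F9AL.1 (r = 0.951), *mrpl-4* (r = 0.935) and *mrpl-41* (r = 0.934), with exon lengths of 1.431, 1.011 and 0.624 kb. These correlations are over libraries that include S3-IAA and S4-IAA, with their trend with exon length. Between the cohesin genes, *coh-1* and *smc-3* had r = 0.90 and *coh-1* and *sgo-1* had r = -0.80 over the 16 libraries, and r = 0.25 and -0.11 without S3-IAA and S4-IAA. *him-1 (smc-1)* and *smc-3*, the cohesin pair with the highest r over all 16 at 0.92, had r = 0.54 without S3-IAA and S4-IAA. *rec-8* and *scc-3*, the pair with the highest r without S3-IAA and S4-IAA, had r = 0.89 over all 16. It was 0.87 without these 2, so this likeness did not rest on them. The pairs given were picked after their values were seen.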

How the data were processed

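The members and lists were chosen with earlier results of these data known, and leaving out S3-IAA and S4-IAA (auxin replicates 3 and 4 of the degron strain) was taken from that work. Base calls were converted by the authors (bcl2fastq 2.1.7), reads were mapped to ce10 (TopHat2 2.0.11) and counted per gene (featureCounts), and the deposited values are whole-number counts with no normalisation. The sources used here do not give the annotation, the strand setting or how reads with several matches were counted. Groups and replicate numbers came from the sample labels.

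From these counts, edgeR 4.0.16 in R 4.3.3 (robust quasi-likelihood, TMM factors, filter at 10 counts) was fitted over the 16 libraries as 4 groups with 1 shared estimate of the spread (biological coefficient of variation 0.185). P-values were adjusted over 11776 genes by the Benjamini-Hochberg method, and 0.05 was the threshold. CPM values were scaled by the TMM factors. For single genes, an exact two-sided permutation test was run on CPM. Genes named were the 10 members, *syp-2*, companion genes past the threshold, and the 3 genes most like each called member. The companion genes given below the threshold, *smc-5* among them, fall outside this rule and were chosen after their values were seen. Exon lengths came from a WBcel235 annotation, and no coordinates are given, since the alignments used another build. Alternatives were RLE factors, DESeq2 1.42.0, limma-voom (limma 3.58.1), no filter beyond 1 count, a replicate block, the 8 libraries of a comparison alone, the trend with exon length removed (loess, span 0.5), and libraries left out. The scripts were tested on simulated data. No 2 libraries of a group agreed within sampling noise.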

Additional observations from a re-analysis of the deposited data

Results flagged for a closer look

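In N2 worms with auxin, *him-1 (smc-1)* was at 189 CPM in replicate 2, far from the other 3 libraries at 224 to 228 CPM. All 10 cohesin genes were below the untreated mean in that library. In untreated *syp-2::AID* worms, *smc-3* was at 104.1 CPM in replicate 1, far from the other 3 libraries at 116 to 117 CPM. A gap of this size relative to the range of a group is expected by chance in about 1 in 20 groups, and 2 of the 40 groups checked had one.

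*sgo-1* lay above the untreated mean in all 4 auxin-treated *syp-2::AID* libraries and below it in all 4 auxin-treated N2 libraries. How many of all genes lie on opposite sides in this way was not counted. The difference between the strains' responses was 0.45 on the log2 scale and missed the threshold when tested as an interaction (edgeR adjusted p = 0.213). It was 0.28 without S3-IAA and S4-IAA.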

How the results depend on the processing

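*coh-1* had the fewest counts of the set, down to 70 in a library, and whether depth limited its test was not tested. The values below are counts of genes called, or log2 fold changes that changed sign without being called, and the cause of each change was not tested.

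With auxin in *syp-2::AID* worms, 2 of the 10 cohesin genes were called, and 1 with RLE factors, limma-voom, no filter beyond 1 count or the length trend removed (*coh-1* each time), 0 on the 8 libraries alone and 0 without S3-IAA and S4-IAA, with a range of 0 to 4 when 1 library was left out (4 without auxin replicate 2). Between the treated strains 1 was called with DESeq2, limma-voom or the length trend removed, with a range of 0 to 3. Between the untreated strains 1 was called without S3-IAA and S4-IAA, beside 12.4% of all genes in that fit.

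Of all genes, 848 were called with auxin in *syp-2::AID* worms, against 1279 with DESeq2, 393 on the 8 libraries alone and 444 without S3-IAA and S4-IAA. The range was 506 to 3170 with 1 library left out, with 2756 and 3170 without auxin replicates 1 and 2. The 640 genes in N2 worms became 1230 on the 8 libraries alone, 1577 without S3-IAA and S4-IAA and 996 with the length trend removed (417 to 749 with 1 library left out). The 2 genes of the difference became 123 with DESeq2, 0 with limma-voom, 1 without S3-IAA and S4-IAA and 8 with the length trend removed (0 to 3). The 103 genes between the untreated strains became 553 with DESeq2, 278 on the 8 libraries alone, 1511 without S3-IAA and S4-IAA and 288 with the length trend removed (26 to 434). The 124 genes between the treated strains became 761 with DESeq2, 77 with no filter beyond 1 count, 3 on the 8 libraries alone, 53 without S3-IAA and S4-IAA and 262 with the length trend removed (21 to 2405, with 2027 and 2405 without auxin replicates 1 and 2 of the degron strain). The split of higher and lower genes moved with DESeq2 and the length trend. In *syp-2::AID* worms with auxin it was 621 and 227, against 803 and 476 with DESeq2 and 566 and 390 with the length trend removed. In N2 worms it was 470 and 170, against 497 and 499 with the length trend removed. It was 80 and 23 between the untreated strains, against 290 and 263 with DESeq2 and 155 and 133 with the length trend removed, and 79 and 45 between the treated strains, against 362 and 399 with DESeq2 and 117 and 145 with the length trend removed.

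Whether same-numbered libraries were handled together is not given in the sources used here. Over 24 pairs of same-numbered libraries, the correlation of deviations from the group means ran from -0.39 to 0.35 with a median of -0.06, and 5 were over 0.1. Over 72 pairs with different numbers it ran from -0.46 to 0.51 with a median of 0.01, and 26 were over 0.1. With the replicate block, 1 cohesin gene was called with auxin in *syp-2::AID* worms (*coh-1*), 0 of all genes in the difference, 56 between the untreated strains and 53 between the treated strains.

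Signs turned for small values. With auxin in *syp-2::AID* worms *coh-4* became -0.025 with RLE factors, -0.027 with DESeq2, -0.026 with no filter beyond 1 count and -0.0091 on the 8 libraries alone. Without S3-IAA and S4-IAA *rec-8* became 0.063, *scc-1* 0.031, *scc-3* 0.099 and *wapl-1* 0.047, and with the length trend removed *rec-8* became 0.091, *smc-3* 0.059, *scc-3* 0.15 and *wapl-1* 0.12. In N2 worms *scc-3* became -0.0065 with RLE factors, -0.0085 with DESeq2 and -0.069 with the length trend removed, where *him-1* became -0.0061. In the difference *scc-1* became -0.0078 with no filter beyond 1 count. Without S3-IAA and S4-IAA the difference became 0.078 for *rec-8*, 0.045 for *smc-3*, 0.088 for *scc-3* and 0.094 for *wapl-1*, and with the length trend removed 0.19, 0.18, 0.22 and 0.24 for these genes. Between the treated strains *coh-3* became -0.028 with RLE factors, -0.031 with DESeq2, -0.028 with no filter beyond 1 count and -0.026 on the 8 libraries alone. Without S3-IAA and S4-IAA *him-1* became 0.057, *smc-3* 0.027 and *scc-3* 0.038 there, and with the length trend removed *rec-8* became 0.040, *him-1* 0.025, *smc-3* 0.096, *scc-3* 0.10 and *wapl-1* 0.065.

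Leaving out 1 library turned the sign of *rec-8* (-0.12 to 0.021) and *coh-4* (-0.022 to 0.068) in *syp-2::AID* worms, *rec-8* (-0.066 to 0.032) and *scc-3* (-0.046 to 0.056) in N2 worms, *rec-8* (-0.10 to 0.037), *scc-1* (-0.018 to 0.11) and *wapl-1* (-0.087 to 0.012) in the difference, *smc-3* (-0.032 to 0.022) between the untreated strains, and *coh-3* (-0.046 to 0.062) and *coh-4* (-0.0065 to 0.14) between the treated strains.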
